A study of Mus musculus with 9 samples.

Results

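The forkhead genes considered here are 10 members of the Fox family with known roles in mesoderm, endoderm and their derivatives: Foxf1, Foxf2, Foxc1, Foxc2, Foxl1, Foxq1, Foxp1, Foxa2, Foxo1 and Foxd3. They were taken as a list of names, out of 21911 protein-coding genes, chosen with earlier results of these data known. A CHD7 peak belonged to a member when its midpoint lay in the regulatory domain of that gene. The domain of a gene covered 5 kb before and 1 kb after its transcription start site (TSS) and was extended on each side by at most 1 Mb, until it met the same basal stretch of any other protein-coding gene. By this rule 17 of the 3761 CHD7 peaks in the deposited list lay in the domain of at least 1 member, and 9 of the 10 members had a peak. Neighbouring domains overlap under this rule, so a single peak can be assigned to more than 1 gene.

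The peaks came from CUT&RUN, in which an antibody directs a nuclease to the DNA around its target protein. It was done in wild-type (WT) cardiac progenitor (CP) cells obtained from embryonic stem cells of C57BL6 mice at day 5 of differentiation, with 500000 cells for each library. There were 9 libraries, 3 biological replicates each with anti-CHD7, with IgG as the negative control and as input, all from cells of the same genotype. The deposited list is 1 table for the 3 anti-CHD7 replicates together, with positions alone, so neither the depth of a library nor the spread between replicates is known, and no peak has a height or a P-value. The cells were grown in culture and not taken from embryos, RNA was not measured in these samples, and the identity of the cells could not be checked against their markers. Every share below is a description of this list, and the Wilson 95% confidence intervals given with some of them cover counting error only.

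Forkhead proteins share a winged-helix DNA-binding domain that recognises a short core with the letters TGTTTAC or TGTTTGC. Foxf1 and Foxf2 act in the splanchnic mesoderm and the mesenchyme around the gut, Foxc1 and Foxc2 in paraxial mesoderm, the outflow tract and blood vessels, and Foxa2 in endoderm, notochord and floor plate, where it is a classic pioneer factor that can open chromatin. Several forkhead genes lie side by side in the genome as remnants of an ancient cluster, so that 1 stretch of regulatory DNA can serve more than 1 of them. CHD7 is a chromatin remodeller that moves nucleosomes along DNA with the energy of ATP and is known to bind mostly at distal enhancers.

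The sequences of 5 peaks, from both forkhead gene clusters and from Foxa2, are shown as examples. They are the 300 bp around the midpoint of peak1795 (Foxf1), peak1796 (Foxc2 and Foxl1), peak2770 (Foxc1), and peak481 and peak482 (both Foxa2), read 5′ to 3′ on the plus strand of GRCm38. Capitals mark matches, on either strand, to the words searched for 8 factors or families, which are given with their frequencies further on. The main frequencies are for the central 200 bp, which leaves out both matches of peak1795 and some of those of peak2770. All 5 windows shown hold a match, whereas 12 of the 17 peaks had none in their central 200 bp.
peak1795 (chr8:120985641-120985940, plus strand): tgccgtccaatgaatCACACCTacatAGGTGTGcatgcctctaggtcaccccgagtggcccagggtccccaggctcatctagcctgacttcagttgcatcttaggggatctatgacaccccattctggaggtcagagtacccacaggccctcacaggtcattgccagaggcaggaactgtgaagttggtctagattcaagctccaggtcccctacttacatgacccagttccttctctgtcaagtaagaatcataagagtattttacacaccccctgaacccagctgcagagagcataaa
peak1796 (chr8:121120959-121121258, plus strand): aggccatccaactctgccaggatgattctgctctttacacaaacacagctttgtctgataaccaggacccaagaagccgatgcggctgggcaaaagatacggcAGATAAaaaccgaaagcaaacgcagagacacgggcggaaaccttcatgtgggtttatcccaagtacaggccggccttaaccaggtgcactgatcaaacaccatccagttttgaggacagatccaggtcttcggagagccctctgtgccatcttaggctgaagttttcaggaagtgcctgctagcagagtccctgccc
peak2770 (chr13:31826832-31827131, plus strand): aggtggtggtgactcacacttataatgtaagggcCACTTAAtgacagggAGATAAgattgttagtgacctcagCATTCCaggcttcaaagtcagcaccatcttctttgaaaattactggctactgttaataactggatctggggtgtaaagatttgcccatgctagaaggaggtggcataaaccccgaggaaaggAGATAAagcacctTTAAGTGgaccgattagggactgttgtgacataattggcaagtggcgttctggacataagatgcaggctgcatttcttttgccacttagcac
peak481 (chr2:147952445-147952744, plus strand): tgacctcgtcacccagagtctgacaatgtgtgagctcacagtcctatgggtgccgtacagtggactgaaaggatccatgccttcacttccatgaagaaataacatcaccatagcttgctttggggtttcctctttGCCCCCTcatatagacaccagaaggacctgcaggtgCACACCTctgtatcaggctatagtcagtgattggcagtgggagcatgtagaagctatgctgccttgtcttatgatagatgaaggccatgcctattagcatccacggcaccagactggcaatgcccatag
peak482 (chr2:148005191-148005490, plus strand): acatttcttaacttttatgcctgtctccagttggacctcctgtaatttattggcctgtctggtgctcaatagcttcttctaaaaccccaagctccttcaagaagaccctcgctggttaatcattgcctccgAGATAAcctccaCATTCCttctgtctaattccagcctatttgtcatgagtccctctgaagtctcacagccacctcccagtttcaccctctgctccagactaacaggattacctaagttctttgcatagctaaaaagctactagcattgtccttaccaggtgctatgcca
The windows differed in what they held. The window of peak2770 had 5 matches, whereas that of peak1796 had 1. In peak1795 both matches were the T-box word AGGTGTG, on opposite strands and 4 bp apart, which gives an inverted repeat.

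CHD7 peaks were assigned to 9 of the 10 members (90.0%, 95% CI 59.6 to 98.2), against 22.7% of all protein-coding genes. Their domains were long, 503456 bp at the median whereas that of all genes was 90167 bp, and a long domain offers more room for a peak. Among the members with a domain longer than 200 kb, 8 of 9 had a peak (88.9%, 95% CI 56.5 to 98.0), against 42.4% of all genes with a domain of that length. In total there were 18 pairs of a member and a peak, because peak1796 counted for both Foxc2 and Foxl1. Joined together, the domains of the members covered 5.82 Mb and held 2.92 peaks per Mb, compared with 1.38 peaks per Mb over the 2726 Mb of the chromosomes. These genes are few and some of them are neighbours, so their shares are not those of independent genes. They were also picked with peak counts of these data known, so a high share may be built into the choice. The intervals do not cover that choice, and the differences from all genes were not tested.

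Members differed widely in the number of their peaks. Foxa2 had 5 peaks, a number reached or passed by 36 genes (0.164% of all genes), and Foxp1 had 4, reached or passed by 116 genes (0.529%). These ranks are over genes of any domain length. The domains of Foxa2 and Foxp1 were as long as or longer than those of 95.6% and 98.2% of all genes. Foxo1 and Foxl1 each had 2 peaks, and 1288 genes (5.88%) had at least that many. Foxf1, Foxf2, Foxc1, Foxc2 and Foxd3 had a single peak each. Foxq1 had none. The order follows the length of the domain only in part, since Foxp1 and Foxa2 had the longest domains (1318017 and 1024350 bp) but Foxo1, with 906161 bp, had no more peaks than Foxl1 with 423783 bp.

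**Figure D1:**
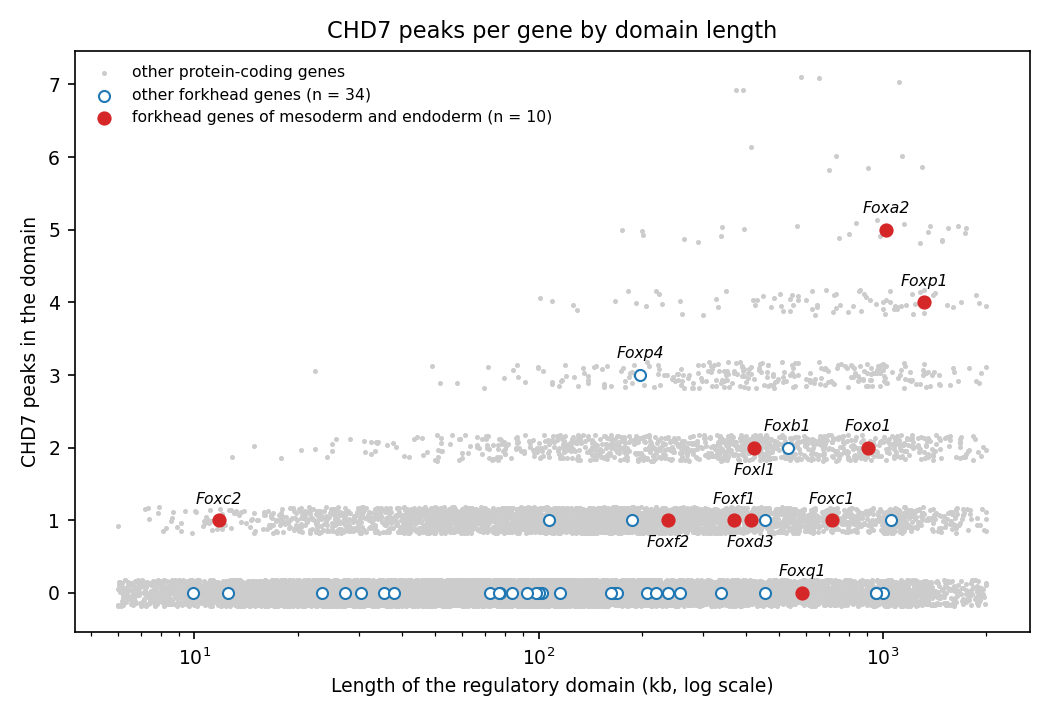
Number of CHD7 peaks in the regulatory domain (vertical axis) against the length of the domain in kb (horizontal axis, log scale) for each protein-coding gene. Red points are the 10 members, open blue circles the other 34 forkhead genes and grey points all other genes, shifted slightly in height at random so that they do not hide each other. Foxa2 and Foxp1 lie at the upper right with 5 and 4 peaks, Foxc2 is far to the left with 1 peak in 11.8 kb, and Foxq1 is the only member at 0.

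The distances of the peaks from the members ranged from a few kb to most of a Mb. The distance from the midpoint of a peak to the TSS of the member had a median of 184554 bp (95% interval from the order of the values 41628 to 354032 bp, 18 pairs), against 57406.5 bp over the 6818 pairs of all genes. The interval holds the median of all genes, and it treats pairs of the same gene as separate. The median of the members was 98595 bp with the most 5′ TSS or with an extension of up to 500 kb, and 96484.5 bp when each peak went to the single nearest gene. The median over all genes was not calculated under these settings. Within 10 kb the share of pairs was near that of all genes, 3 of 18 (16.7%) beside 18.5%, and within 100 kb it was 8 of 18 (44.4%) beside 64.5%. No pair lay in the basal stretch of a member, 5 kb before to 1 kb after the start. Only 3.17% of all genes had a peak in theirs. The closest was peak1796 at 4938 bp downstream of the TSS of Foxc2, and the farthest was peak1319 at 911496 bp downstream of that of Foxp1. Of the 18 pairs, 6 were upstream of the member (33.3%, against 44.0% of all pairs).

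**Figure D2:**
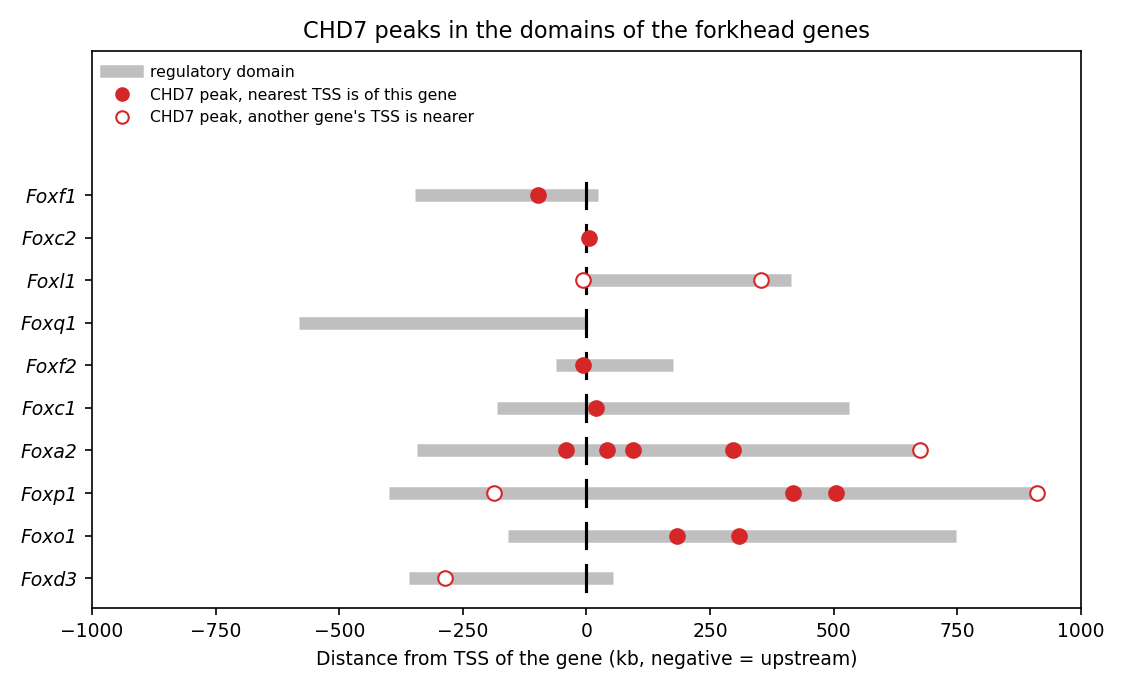
Position of each CHD7 peak (circles) relative to the TSS (black tick) of the member in whose domain (grey bar) it lies, in kb, with negative values upstream. Filled circles are the peaks for which this member has the nearest TSS and open circles those for which another gene has it. Peaks of Foxa2 and Foxp1 spread widely over their domains, and both peaks of Foxo1 lie downstream of its TSS. The Foxq1 domain, cut short on its downstream side, holds none.

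When all transcripts of protein-coding genes were considered, a member had the TSS nearest to 12 of the 17 peaks. The median distance to that nearest TSS was 59897 bp, whereas over the whole list it was 13852 bp. None of the 17 peaks lay within 1 kb of such a TSS, which 585 of the 3761 peaks (15.6%) did, and a count of 0 among 17 allows a share of up to 17.6%. Within 10 kb there were 4 of the 17 (23.5% beside 43.3%) and within 50 kb 8 (47.1% beside 75.4%). By place, 11 of the 17 were outside every protein-coding gene (64.7%, against 46.8% of all peaks), 6 were in introns (35.3%, against 44.2%) and none was in an exon (8.96% of all peaks). Of the 6, 3 were in an intron through the gene model Gm20388 alone, and without it 3 of the 17 were in introns and 14 outside protein-coding genes. The shares within 10 and 50 kb were lower than those of the list, but peak479 at 2879 bp and peak1796 at 4938 bp were close to a TSS. A long domain admits more distant peaks, and its part in these distances was not tested.

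The Foxf1-Foxc2-Foxl1 locus is a cluster of 3 genes on the plus strand of chromosome 8. Their TSSs lie within 43554 bp, with 31785 bp from Foxf1 to Foxc2 and 11769 bp from Foxc2 to Foxl1. Together their domains spanned 803596 bp (chr8:120737358-121540953) and held 3 peaks, or 3.73 per Mb. All 3 fell in introns of Gm20388, a gene model that runs through the whole locus, from -1174 to 3261 kb relative to the TSS of Foxf1, and so says little about where they are.

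Peak1795 was the peak of Foxf1 and the only 1 of the locus that lies upstream of the whole cluster, 98595 bp before the TSS of Foxf1 (chr8:120985400-120986182). It was 783 bp wide with 52.6% GC. Its other gene was Irf8, a regulator of myeloid cells, at 249433 bp. The midpoint lay outside Fendrr, the long non-coding RNA that runs away from Foxf1 on the other strand, which covers -29.5 to -1.28 kb relative to the TSS of Foxf1, and no peak of the list lay in that interval. No annotated gene of any kind other than Gm20388 held the midpoint or started within 10 kb of it.

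Peak1796 was unlike the other peaks of these genes in width. At 2389 bp (chr8:121119915-121122303) it was the widest of the 17 and wider than or equal to 98.9% of all peaks, whose median width was 703 bp. Its midpoint lay between Foxc2 and Foxl1, 4938 bp downstream of the TSS of Foxc2 and 6831 bp upstream of that of Foxl1, and the whole peak lay between the end of Foxc2 and the start of Foxl1. It was 1831 bp inside the edge of the Foxc2 domain and 3938 bp inside that of the Foxl1 domain. The same peak missed the domain of Foxf1 by 13791 bp, because the start of Mthfsd, a gene between Foxf1 and Foxc2, ends that domain. Measured from the TSS of Foxf1 it was at 36723 bp, nearer than peak1795, so that the number of peaks given to Foxf1 depends on where the domain is taken to end.

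Foxl1, a gene of the mesenchyme under the gut epithelium, also had peak1797, at 354032 bp downstream (chr8:121481646-121482298). For this peak 1700018B08Rik was nearer, at 59982 bp by the TSS used for its domain. Peak1797 was 653 bp wide, and 60.2% of its bases were marked as repeats in the reference genome. That was the highest share among the 17, whose median was 10.1% (13.2% over all peaks).

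**Figure D3:**
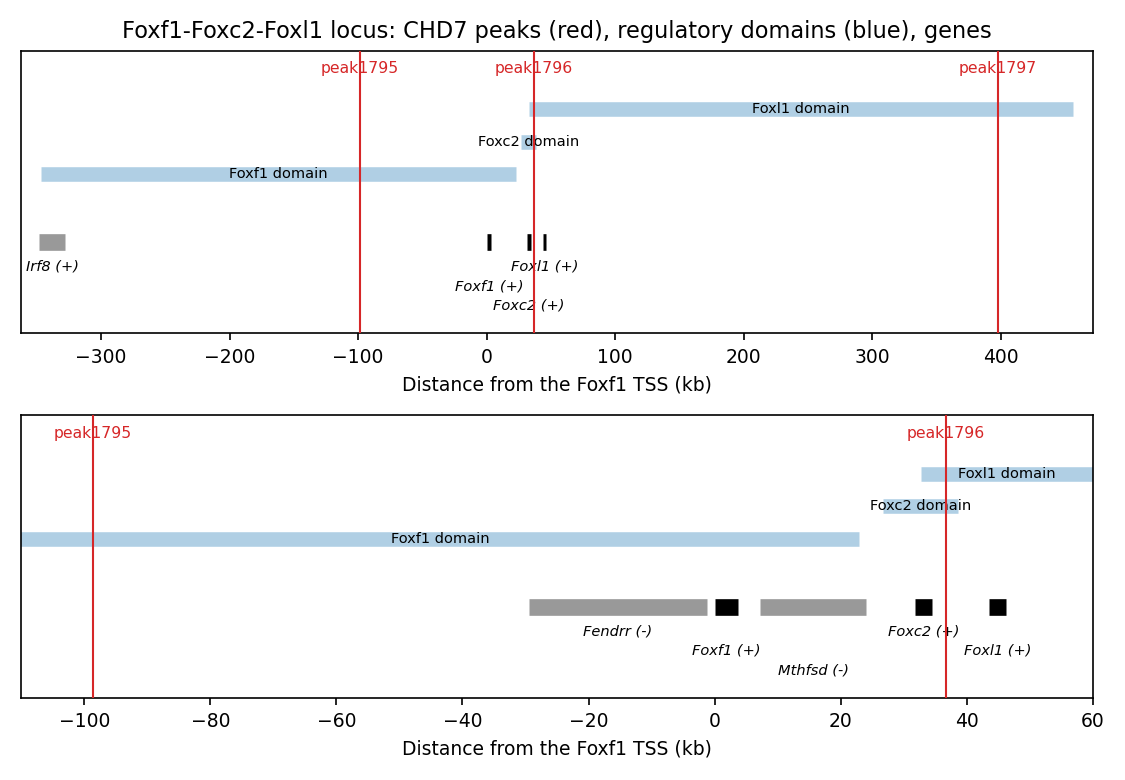
Map of the Foxf1-Foxc2-Foxl1 locus with distances in kb from the TSS of Foxf1, the whole locus above and the part around the genes below. Red lines are the midpoints of CHD7 peaks, blue bars the regulatory domains, black boxes the forkhead genes and grey boxes some of the other genes, with their strand. Peak1795 lies alone upstream of Foxf1, beyond the far end of Fendrr. Peak1796 lies between Foxc2 and Foxl1, inside both of their domains and outside that of Foxf1.

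The Foxq1-Foxf2-Foxc1 locus is the related cluster on chromosome 13, again with all 3 genes on the plus strand. It is looser than the cluster of chromosome 8: the outer TSSs are 250499 bp apart, with 69682 bp from Foxq1 to Foxf2 and 180817 bp from Foxf2 to Foxc1. The domains spanned 1362536 bp (chr13:30975204-32337739) and held 2 peaks, or 1.47 per Mb. As at the cluster of chromosome 8, a single peak lay between the outer TSSs.

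Peak2769 was assigned to Foxf2, 7255 bp upstream of its TSS (chr13:31618249-31618873), and was 625 bp wide. It had the highest GC content of the 17 peaks, 54.2%, above or equal to 85.3% of all peaks. The midpoint lay in an intron of 1700018A04Rik, a long intergenic non-coding RNA that starts right beside the TSS of Foxf2, at -0.023 kb, and runs the other way. Another non-coding RNA, Gm11378, starts 607 bp from the midpoint, so this peak, distal to coding genes, was close to an annotated non-coding start. The small gene model Gm27516, listed as a miRNA, starts 7982 bp away, and A530084C06Rik, the other gene of the association, is at 59228 bp.

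Peak2770 was assigned to Foxc1, 20349 bp downstream of its TSS (chr13:31826407-31827557), and was 1151 bp wide with no repeat bases. It lay in an intron of Gmds, which encodes an enzyme of GDP-fucose synthesis and points towards Foxc1 from the other strand. The TSS of Gmds was far off, at 511758 bp, while that of Foxc1 was the nearest. Gm48883, a transcript model that the annotation keeps as provisional, starts 7754 bp away. Each of these peaks fell outside the domain of the other gene: peak2769 was 8255 bp short of that of Foxc1, and peak2770 was 25349 bp beyond that of Foxf2.

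Foxq1, which acts in epithelia of skin and stomach, was the only member without a peak. Its domain was long, 583129 bp, but only 2199 bp of it were downstream, since A530084C06Rik starts inside Foxq1 on the other strand, and its basal stretch ends the domain. The nearest peak was peak2769, 62427 bp downstream of the TSS and 60228 bp outside the domain. When gene models with Gm and Rik names were not allowed to limit domains, an alternative chosen after seeing the data, Foxq1 received peak2769 and all 10 members had a peak.

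**Figure D4:**
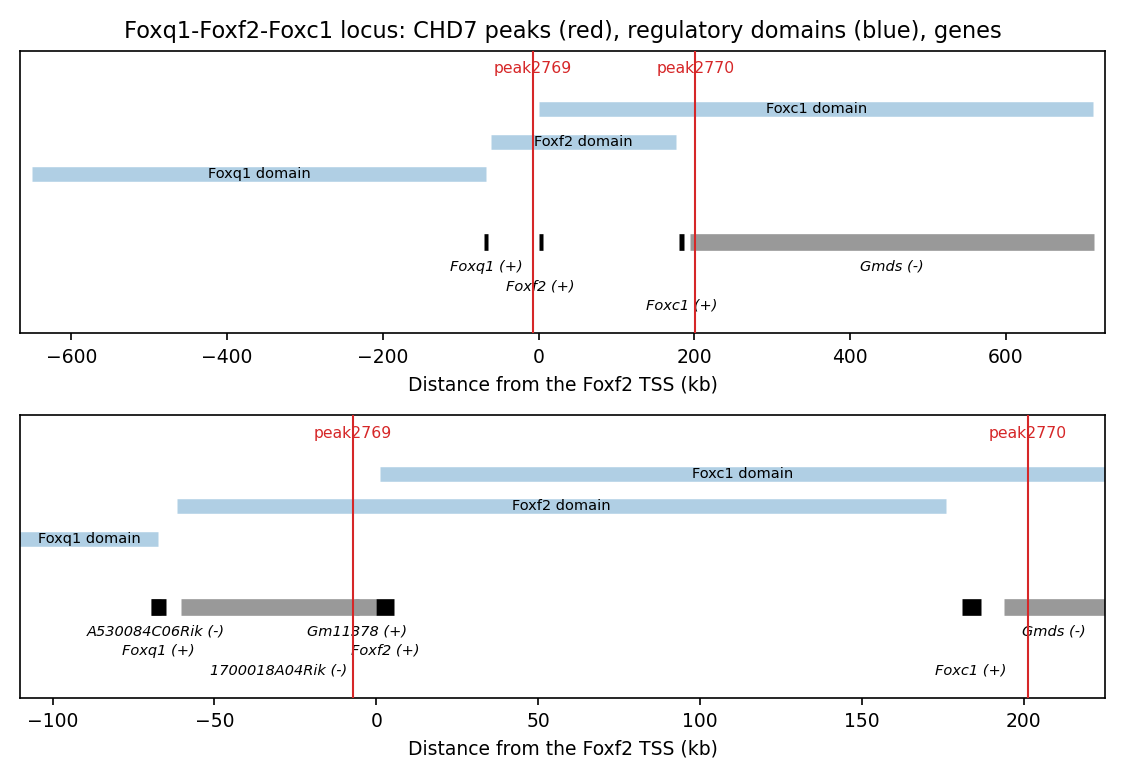
Map of the Foxq1-Foxf2-Foxc1 locus with distances in kb from the TSS of Foxf2, the whole locus above and the part around the genes below. Red lines are the midpoints of CHD7 peaks, blue bars the regulatory domains, black boxes the forkhead genes and grey boxes some of the other genes, with their strand. Peak2769 lies just upstream of Foxf2, inside 1700018A04Rik, and peak2770 lies beyond Foxc1 in the body of Gmds.

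Foxa2 had the most peaks of the 10 members. It lies on the minus strand of chromosome 2, and its 5 peaks ranged from peak483, 41734 bp upstream, to peak479, 675808 bp downstream. Peak482 lay 41628 bp downstream, at almost the same distance as peak483 on the other side of the gene. Between these nearest peaks and peak479 were peak481 at 94374 bp and peak480 at 295675 bp downstream. Foxa2 thus had a peak on each side and 4 of its 5 on the downstream side. Its domain was also longer on that side, with 680975 bp downstream and 343375 bp upstream.

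The Foxa2 peaks differed in their surroundings. Peak481 (chr2:147952158-147953031, 874 bp) and peak482 (chr2:148005131-148005551, 421 bp) both lay in introns of 9030622O22Rik, a long intergenic non-coding RNA downstream of Foxa2, while peak480 (chr2:147751030-147751558) and peak483 (chr2:148088339-148089067) were outside any annotated gene. Peak479 (chr2:147370891-147371430) was in an intron of Pax1, a gene of the sclerotome and the pharyngeal pouches, only 6167 bp from the TSS of Pax1 used for its domain, and 5167 bp inside the edge of the Foxa2 domain. The antisense transcript AI646519 starts 8368 bp from it. Since the next coding gene downstream of Foxa2 is Pax1, 4 of the 5 peaks counted for both genes, and peak483 for Foxa2 and the somatostatin receptor gene Sstr4. By nearest TSS Foxa2 kept 4 of its peaks and lost peak479 to Pax1.

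Foxp1, a gene with roles in heart muscle and in lymphocytes, had 4 peaks in the longest domain of the members. Of these, 3 were downstream, towards Gm765: peak1321 at 417496 bp (chr6:98848772-98849265), peak1320 at 505370 bp and peak1319 at 911496 bp (chr6:98354296-98355741). Peak1319 was 12265 bp from the TSS of Gm765 and, at 1446 bp, wider than or equal to 89.3% of all peaks. The remaining peak, peak1322 (chr6:99452413-99453081), was 186232 bp upstream of the TSS used for the domain but within the body of Foxp1, in an intron. Foxp1 has 14 separate starts of protein-coding transcripts, and the closest of them was 17402 bp downstream of peak1322, so this peak lies between alternative promoters of Foxp1 and its distance depends on which of them is used. It was also in an intron of Gm20696, whose TSS at 7140 bp was the nearest, and its other associated gene was Eif4e3. With the most 5′ start of Foxp1 the same peak was 68415 bp downstream of the TSS, and peak1319 left the domain. Peak1320 (chr6:98760903-98761387) had the lowest GC content of the 17 peaks, 35.5%.

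Foxo1, a transcription factor under the control of insulin signalling that is also needed in blood vessel development, had 2 peaks downstream of its TSS. Peak596 (chr3:52450812-52451611) was at 182876 bp and peak597 (chr3:52576631-52577118) at 308539 bp, both beyond the end of the gene and outside any annotated gene. Their other gene was Cog6, of the Golgi, at 566025 and 440362 bp. Foxo1 had the nearest TSS for both.

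Foxd3, known from pluripotent cells and the neural crest, had 1 peak, peak834 (chr4:99370057-99370497), at 286022 bp upstream. The TSS of Gm12689 was much nearer, at 74377 bp, so that this assignment rests on the domain rule alone. The next nearest peak of the whole list was 766735 bp from peak834, the largest such gap among the 17 peaks, whose median gap was 135318 bp (131168 bp over all peaks). Foxd3 and Foxl1 were the members with a peak that lost all of their peaks when each peak went to the nearest TSS alone.

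The bodies of the 17 peaks were much like those of the list in width and base content. Their median width was 653 bp (range 421 to 2389 bp) against 703 bp, and their median GC content was 46.3% (range 35.5 to 54.2%) against 47.5%. The ratio of observed to expected CpG had a median of 0.205 against 0.212. After peak1796, the widest were peak1319 of Foxp1 with 1446 bp and peak2770 of Foxc1 with 1151 bp.

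**Figure D5:**
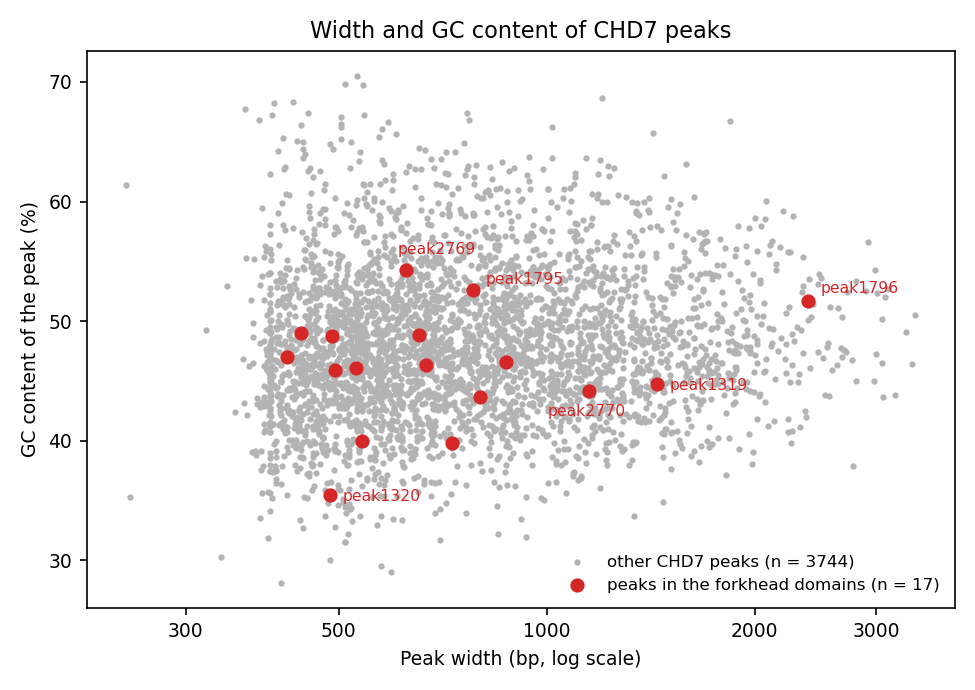
Width in bp (horizontal axis, log scale) and GC content in percent (vertical axis) of the CHD7 peaks. Red points are the 17 peaks in the domains of the forkhead genes and grey points the other 3744 peaks. Most of the 17 lie within the main cloud, peak1796 lies at its right edge with 2389 bp, and peak1320 lies low with 35.5% GC.

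No forkhead core was found at the centres of these peaks. The central 200 bp of a peak held TGTTTAC or TGTTTGC, on either strand, in 0 of the 17, which allows up to 17.6%, and in 6.91% of all 3761 peaks. In 7522 windows of the same length, 2 kb outside the edges of all peaks, the share was 6.25%. In 32544 promoters of 300 bp, from 250 bp before to 50 bp after a RefSeq start, it was 8.49%. Over the whole length of the peaks, 4 of the 17 held a core (23.5%), against 25.9% of all peaks. With 17 peaks, a difference of that size from the rest of the list was not detectable.

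Of the 5 cores in these 4 peaks, 4 are shown with 10 bp on each side, since this is the word that the proteins of the family recognise. Capitals mark the core, and the sequence is that of the strand given, 5′ to 3′.
peak483 (chr2:148088878-148088904, plus strand): atctgttgacTGTTTGCtgtagctcac
peak483 (chr2:148088940-148088966, minus strand): cccagaatctTGTTTACctaactaaat
peak1796 (chr8:121121535-121121561, plus strand): gggatactggTGTTTGCcttgtggacc
peak2769 (chr13:31618260-31618286, plus strand): ttcactcattTGTTTACaggaccagag
They lay in peak483 of Foxa2, in peak1796 of Foxc2 and Foxl1 and in peak2769 of Foxf2. Peak483 was the only peak with more than 1, with a TGTTTGC 185 bp and a TGTTTAC 247 bp to the right of its midpoint. The others shown were 436 bp from the midpoint in the 2389 bp of peak1796 and 291 bp from it in the 625 bp of peak2769, near the edge of the latter. A match is a run of letters and not a measured site, and occupancy by forkhead proteins was not measured in these samples.

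Of the other words, that of GATA factors, which act in cardiac and endodermal progenitors, occurred in the most peak centres. AGATAA was in the central 200 bp of 4 of the 17 peaks (23.5%, 95% CI 9.56 to 47.3), beside 11.8% of all peaks and 10.7% of the windows outside them. The interval holds the share of the whole list. The peaks were peak482 of Foxa2, peak1796 of Foxc2 and Foxl1, peak1797 of Foxl1 and peak2770 of Foxc1. Peak482 also had the TEAD word CATTCC next to its GATA word, as its sequence above shows, and peak2770 had both the NKX2 and the TEAD word in the same window.

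The remaining words were rare at the centres of the peaks. T-box and NKX2 factors act in cardiac progenitors, TEAD proteins are the DNA-binding partners of the Hippo pathway, and GLI proteins those of Hedgehog signalling. The TEAD word was in 2 of the 17 (11.8%, as in 11.8% of all peaks), and the core of the insulator protein CTCF, AGGGGGC, the T-box word AGGTGTG and the NKX2 word CACTTAA were in 1 each (5.88%), beside 3.64%, 4.55% and 2.79% of all peaks. The GC box GGGCGGG and the GLI word GGGTGGTC were in none, beside 5.24% and 0.532%. Over the whole length of the peaks they were again in none of the 17, beside 15.1% and 2.26% of all peaks. None of the 8 words was found in the central 200 bp of 12 of the 17 peaks (70.6%, against 60.9% of all peaks). No matches of different words overlapped. Absence of a match says only that these letters are not in the window.

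A pair of peaks stood apart by the arrangement of words in them, and both were singled out after their values had been seen. Peak2770 of Foxc1 held 3 GATA words and 2 NKX2 words over its whole length, which 5 of the 3761 peaks (0.133%) did with at least as many of each. That count is over peaks of any width, and peak2770 was wider than or equal to 79.4% of them, which gives more room for words. In its central 200 bp it had words of 3 kinds, GATA, NKX2 and TEAD, and at least that many kinds were found in 29 peaks of the list (0.771%). Peak1795 of Foxf1 had its pair of T-box words 135 and 124 bp to the left of its midpoint, and at least 2 such words were found in 113 of the 3761 peaks. On opposite strands, reading away from each other and at most 10 bp apart, as in peak1795, they were found in no other peak of the list, 1 of 3761 (0.0266%). These frequencies describe the list, and because peaks and arrangements were picked for their values, they support nothing further.

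The other forkhead genes of the mouse had fewer peaks. Of the 34 that are not among the 10 members, 6 had a peak in their domain (17.6%, 95% CI 8.35 to 33.5), which is near the 22.7% of all genes. With domains longer than 200 kb the count was 3 of 12 (25.0%), beside 42.4% of all such genes. The 6 genes were Foxp4 with 3 peaks, Foxb1 with 2, and Foxe1, Foxj2, Foxk1 and Foxo3 with 1 each. For Foxp4, the closest relative of Foxp1 among them, the peaks were 22398, 77044 and 98601 bp upstream, and for Foxb1 73839 bp downstream and 180075 bp upstream. Foxa1, the near relative of Foxa2 in endoderm, had no peak in a domain of 339371 bp, and its nearest peak was at -1621514 bp. Foxp2 and Foxn3 had no peak in domains of 955387 and 957925 bp, lengths similar to those of Foxa2 and Foxo1. Over all 44 forkhead genes, 15 had a peak (34.1%, 95% CI 21.9 to 48.9), and 9 of these were the members listed above. The members were picked with peak counts of these data known, so their difference from the rest of the family was not tested.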

How the data were processed

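CUT&RUN was done with anti-CHD7 or IgG in CP cells at day 5, beside input libraries, with 3 biological replicates per group. Per the submitters' processing notes and the study's methods, the authors trimmed reads with fastp 0.20.1, aligned them to mm10 with BWA 0.7.17.4, removed duplicates by molecular identifiers, and called peaks with MACS2 2.1.2 in each sample against IgG. Peaks that overlapped in at least 2 replicates were kept. The deposited values are peak starts and ends in bp, in 1 pooled list with no score. Pooling hides replicate error, and weak sites present in a single replicate are not in the list. Reads were not analysed here, nor were the IgG and input libraries, and depth is unknown.

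Starts were read as counted from 0. Peaks were set against GRCm38.p6 with GENCODE M21, with 1 TSS per protein-coding gene chosen by APPRIS level and then spliced length, and assigned by midpoint. Repeats are the soft-masked bases of the reference genome. Words were searched on both strands in the central 200 bp. Promoters were those of RefSeq. Genes named are the members, genes sharing their peaks, non-coding genes that hold a midpoint or start within 10 kb of it, and other forkhead genes with a peak, to which Foxa1, Foxp2 and Foxn3 and the neighbours Fendrr and Mthfsd were added after their values had been seen. Some sequences and 1 gene are not reported here. The members and lists were chosen with earlier results of these data known. No test was run, since the list holds no replicate values. Alternatives were other TSSs, association rules, peak sets and windows. The scripts were checked on made-up peaks and genes whose assignment was known. Analyses used Python 3.11.15, numpy 2.4.6, pandas 2.3.3, scipy 1.17.1, pysam 0.24.0, matplotlib 3.10.9 and samtools 1.23.1.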

Additional observations from a re-analysis of the deposited data

How the results depend on the processing

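The counts held within 1.5 times with the most 5′ TSS of each gene, assignment to the single nearest gene, an extension of up to 500 kb, any base of a peak in the domain, and peaks under 1 kb apart joined. The same was so without gene models with Gm and Rik names, an alternative added after seeing the data. Across these 6 settings, 7 to 10 members had a peak, in 12 to 17 peaks, beside 14.2% (single nearest gene) to 23.0% (any base) of all genes. The median distance of the pairs ranged from 96484.5 to 184554 bp, within its interval, which treats pairs of the same gene as separate. The basal domain alone left 0 members, 0 peaks, 0 pairs and 0 forkhead genes with a peak, and so no median, beside 3.17% of all genes with a peak. With every TSS within 100 kb 7 members (36.8% of all genes) had 7 peaks in 10 pairs, at a median of 39175.5 bp, while forkhead genes with a peak rose from 15 to 20, and Foxq1 gained peak2769 and Foxf1 peak1796. When non-coding genes also limited the domains, 4 members kept a peak, with 3 peaks in 4 pairs at a median of 13590 bp, and 7 forkhead genes had one. That is 4 of 10 beside 27.3% of all genes, much closer than 9 of 10 beside 22.7%. Peaks wider than the median of the list gave 7 members (13.0% of all genes), 7 peaks and 8 pairs, at a median of 68054 bp. The forkhead core was in 4 of the 17 whole peaks (25.9% of all peaks) and in 1 in the central 400 bp (13.7%). No paired analysis was possible because the deposited list pools the replicates, and leaving out a replicate could not be run. With 17 peaks, shares are known only within wide intervals.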
